A study of Mus musculus with 9 samples.

Results

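The genes described here encode the proteins of the cytosolic ribosome. They were taken from the gene table by name: symbols that start with Rpl or Rps and a digit, plus Rplp0, Rplp1, Rplp2 and Rpsa, without hyphenated pseudogene names and without the S6 kinases. The rule found 92 of the 28517 genes of the table, 54 with large-subunit and 38 with small-subunit names. Not all of them encode ribosomal proteins: GENCODE M21 lists 85 as protein coding and 7 as pseudogenes without a hyphen in the name (Rpl32l, Rpl37rt, Rpl6l, Rps12l1, Rps3a2, Rps3a3 and Rps4l), and Rps19bp1 encodes a protein that binds Rps19. The proteins encoded by Fau and Rack1 also belong to the ribosome but fall outside the names, and are given separately.

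Liver RNA came from db/db mice, a strain whose leptin receptor is defective and which develops obesity and diabetes. Treatment lasted 12 weeks, with PBS as vehicle, with FGF19WT or with FGF19ΔKLB, and 3 libraries were made per group. FGF19 is a gut hormone that acts on hepatocytes through FGFR4 with the co-receptor β-klotho, and FGF19WT is its natural form. The labels do not give the sequence change of FGF19ΔKLB, whose table columns carry the code F19_HBS, nor the dose, the age of the mice, or whether the 3 libraries of a group are 3 animals. The p-values below therefore measure the spread between libraries, which may be technical.

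A ribosome is built from 2 subunits, each an assembly of ribosomal RNA and many small proteins. Every subunit needs its proteins in matched amounts, and the genes for them are usually transcribed and translated as a group. Many of their mRNAs begin with a C followed by a run of pyrimidines, the terminal oligopyrimidine or TOP start, through which mTORC1 controls their translation. The liver makes large amounts of secreted protein and is rich in ribosomes, and growing cells make more of them.

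The sequence around the start is shown for 6 genes because it carries the TOP start and shows how alike Rps27 and its retrotransposed copy Rps27rt are. Each line gives 40 bases before the annotated RefSeq start in lower case and 20 bases from the start on in capitals, read 5′ to 3′ on the gene's strand, from RefSeq on GRCm38.p6. Rps6 (chr4:86857348-86857407, minus strand), Rps27 (chr3:90213629-90213688, minus) and Rps27rt (chr9:114982720-114982779, minus) begin with a C and at least 4 pyrimidines. Rplp0 (chr5:115559427-115559486, plus), Rpl22l1 (chr3:28805468-28805527, plus) and Rps25 (chr9:44407674-44407733, plus) do not at this start. Rps27, Rps27rt and Rps25 were chosen for display after their values were seen.
Rps6: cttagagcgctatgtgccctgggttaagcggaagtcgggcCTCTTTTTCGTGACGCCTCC
Rps27: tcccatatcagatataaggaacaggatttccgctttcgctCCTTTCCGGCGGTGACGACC
Rps27rt: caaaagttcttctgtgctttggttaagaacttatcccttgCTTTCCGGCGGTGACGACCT
Rplp0: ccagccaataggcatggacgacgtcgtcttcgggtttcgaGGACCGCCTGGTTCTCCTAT
Rpl22l1: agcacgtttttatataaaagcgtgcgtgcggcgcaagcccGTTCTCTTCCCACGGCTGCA
Rps25: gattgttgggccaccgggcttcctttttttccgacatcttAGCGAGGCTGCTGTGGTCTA

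RefSeq promoters (250 bases before to 50 after the start) were found for 67 of the 92 genes. A C followed by at least 4 pyrimidines stood exactly at an annotated start in 15 of the 67 genes (22.4%), against 3.01% of 27025 genes with a promoter. With the start allowed to move by up to 10 bases either way it was present in 40 of 67 (59.7%), against 34.4%. The letters CCGGAA, the core of the site for ETS factors, were present on either strand in 52.2% of the genes against 16.7%, and ATGGCG, part of the YY1 site, in 29.9% against 10.2%. TATAA was present in 26.9% against 28%, and CACGTG, the E-box that Myc and Max can bind, in 8.96% against 8.09%. These letter motifs were searched on both strands, overlaps between motifs were not removed, and a match is a match of letters only. The 15 genes with a TOP start had a median log2 change of 0.90 for FGF19WT against vehicle and 0.75 for FGF19ΔKLB against vehicle, and the other 50 that passed the filter on low counts had 0.92 and 0.63.

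Library totals were 65081522 to 73294927 counts. Counts from 8 to 40 fell on multiples of 4 between 1.51 and 1.65 times as often as on the neighbouring numbers. From this it was assumed that about 4 counts stand for 1 read pair. The 8 hepatocyte markers summed to 98140 to 289700 CPM (counts scaled to library size with the TMM factors of edgeR) over the 9 libraries, and Acta1, the skeletal muscle marker measured, stood at 0 to 0.18 CPM. FGF19WT libraries 2 and 3 stood apart from library 1 of the same group and from the other groups. In these libraries Glul, a glutamine synthetase of hepatocytes around the central vein, stood at 14800 and 12700 CPM against 185 to 1000 in the other 7. The 12 proliferation genes summed to 133.9 and 182.8 CPM in them, to 15.8 in FGF19WT library 1, to 6.793 to 7.497 with vehicle and to 11.9 to 28.7 with FGF19ΔKLB. The 8 Kupffer cell markers summed to 53.6 and 24.8 CPM in FGF19WT libraries 2 and 3 and to 177.9 to 302.9 in the other 7. Marker sums also differed between FGF19ΔKLB and vehicle, with no overlap of the libraries in the following lists. The 8 hepatocyte markers summed to 199000 to 289700 CPM with FGF19ΔKLB against 98540 to 160600 CPM with vehicle. In FGF19WT libraries 1, 2 and 3 they summed to 201100, 98140 and 108200 CPM. This sum includes albumin, whose share of the counts is given below. Single markers went both ways against vehicle. For FGF19ΔKLB 4 had a positive and 4 a negative log2 change (median 0.26), and for FGF19WT 3 and 5 did (median −0.23). The 7 sinusoidal endothelial genes gave 64.1 to 97.4 CPM with FGF19ΔKLB, 117.6 to 140.4 CPM with vehicle and 147.1, 39.8 and 23.2 CPM with FGF19WT. The 7 B and plasma cell genes gave 24.3 to 51.8 CPM with FGF19ΔKLB, 95.98 to 238.7 CPM with vehicle and 18.3, 4.73 and 3.25 CPM with FGF19WT. Lower sums with FGF19ΔKLB than with vehicle were also found for the T and NK cell genes (2.30 to 3.89 against 7.03 to 15.3 CPM), the 6 stellate cell genes (95.8 to 185.9 against 244.4 to 314.8 CPM) and the 11 Wnt target and pericentral genes (2006 to 3444 against 4955 to 8787 CPM). In the FGF19WT libraries the T and NK cell genes gave 1.41 to 4.92 CPM and the stellate cell genes 193.7 to 214.8 CPM. What part these shifts have in the levels below was not tested, and in bulk tissue fewer cells of a type and less RNA per cell cannot be told apart.

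As a share of all counts, the 92 genes took 1.13%, 1.27% and 1.31% in the vehicle libraries, 1.42%, 2.65% and 3.36% in FGF19WT libraries 1, 2 and 3, and 1.83%, 1.76% and 1.65% in the FGF19ΔKLB libraries. The mean share was 1.24% ± 0.0943 with vehicle, 2.48% ± 0.979 with FGF19WT and 1.75% ± 0.0869 with FGF19ΔKLB (SD, n = 3). All 6 treated libraries were thus above the 3 vehicle libraries, and FGF19WT library 1 was the lowest of the 6. Albumin mRNA alone took 8.6% to 13.5% of the counts with vehicle, 16.4%, 9.1% and 8.7% in the FGF19WT libraries and 16.3% to 21.1% with FGF19ΔKLB. With albumin left out of the total, the share was 1.27% to 1.47% with vehicle, 1.70%, 2.92% and 3.68% with FGF19WT and 2.10% to 2.28% with FGF19ΔKLB, so the order of the groups' means stayed as it was.

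**Figure D1:**
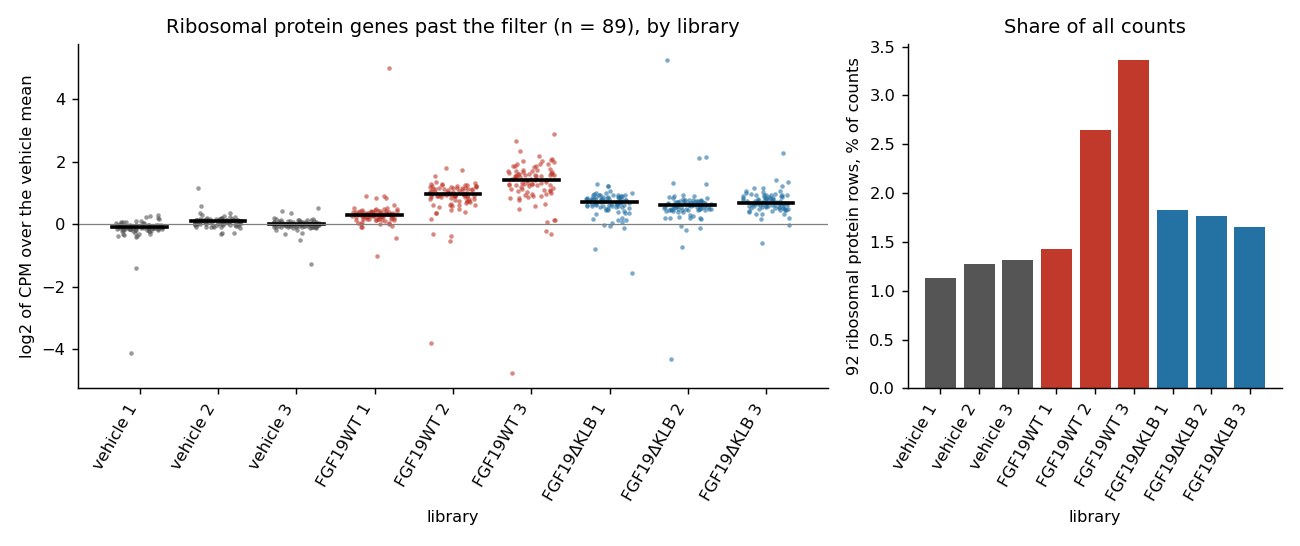
Left, log2 of the CPM of each of the 89 ribosomal protein genes past the filter over its vehicle mean, by library, with 0.1 added to both; the bar is the median. Right, share of all counts in the 92 rows. The medians were −0.10, 0.09 and −0.01 in vehicle, 0.31, 0.96 and 1.43 in FGF19WT, and 0.72, 0.61 and 0.69 in FGF19ΔKLB, and the FGF19WT libraries are spread while the FGF19ΔKLB libraries lie together.

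Most genes of the family were higher in each treated library. FGF19WT library 1 was above all 3 vehicle libraries in 70 of the 89 genes past the filter, library 2 in 85 and library 3 in 84, where 28.3%, 36.3% and 37.9% of all 18142 genes tested were above. The FGF19ΔKLB libraries were above in 80, 82 and 87, where 31.2%, 30.5% and 31.7% of all genes tested were. FGF19WT library 3 held the highest level of all 9 libraries in 77 of the 89 genes, where it did in 22.2% of all genes tested. FGF19WT libraries 2 and 3 were both above the other 7 libraries in 63 of the 89 genes, where 18.4% of all 18142 genes tested did the same.

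The groups differed in how tightly their libraries agreed. The ratio of the highest to the lowest library of a group had a median over the 89 genes of 1.18 with vehicle, 2.31 with FGF19WT and 1.17 with FGF19ΔKLB. It passed 2-fold for Rps18 and Rpl29 in vehicle, for Rpl21, Rpl29, Rps27rt, Rps4l and Rpl32l in FGF19ΔKLB, and for 57 genes in FGF19WT. The 3 genes below the filter were Rpl3l, the muscle form of Rpl3, with counts of at most 31, Rpl10l, a retrogene of Rpl10 active in testis, at 0 in 8 libraries, and the pseudogene Rps12l1, at 0 in 8 libraries. Rps12l1 had 61 counts in vehicle library 3. A count of 0 allows a level of up to 0.164 to 0.184 CPM, depending on the library (3 read pairs, assumed to be 12 counts, counting error only).

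In FPKM, which takes gene length into account, the most abundant were Rplp1 with a mean of 631 over the 9 libraries, Rps15 with 588.5, Rps3a1 with 436.9, Rpl4 with 333 and Rpl36 with 319.3. Rplp1, an acidic protein of the stalk that binds translation factors, stood at 410.3, 518.6 and 450.2 FPKM with vehicle, at 439.4, 974.7 and 1470.0 with FGF19WT, and at 438.9, 497.8 and 479.6 with FGF19ΔKLB. FGF19WT libraries 2 and 3 were far above the other 7, which overlapped. At the low end stood Rpl10l, Rpl3l and Rps12l1, then the pseudogene Rpl32l at 1.53 FPKM and Rpl21 at 1.88 FPKM, whose reads are described with the pseudogenes below.

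FGF19WT libraries were set against vehicle to see what treatment with natural FGF19 altered in liver mRNA. No ribosomal protein gene was called at an adjusted p under 0.05 in the edgeR fit over 9 libraries, where 0.11% of the 18142 genes tested were called, and the smallest adjusted p was 0.0924. At an unadjusted p under 0.05, 79 of 89 were higher and 0 lower, where 11.7% of all genes tested were higher. In 69 of 89 all FGF19WT libraries were above all vehicle libraries, where 11.0% of all genes were. The Wald test of DESeq2 called 62 higher of the 88 to which it gave an adjusted p, where it called 6.37% of all genes higher, and limma on FPKM called 0. The median log2 change was 0.96 against −0.0049 for all genes, with 86 genes positive and 3 negative. Large-subunit genes had a median of 1.01 and small-subunit genes of 0.88.

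These values lean on FGF19WT libraries 2 and 3. Without both, with library 1 alone in the group, the median log2 change was 0.30, against −0.019 for all genes tested. Without library 1 the median was 1.17, and edgeR called 78 of 90 higher, where it called 13.1% of all genes higher. In the same fit Rps4l was called lower, where 2721 of all 19025 genes tested were.

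FGF19ΔKLB was set against the same 3 vehicle libraries. The edgeR fit over 9 libraries again called 0 ribosomal protein genes (0.011% of all genes tested), with 53 of 89 higher and 0 lower at an unadjusted p under 0.05, where 4.64% of all genes tested were higher. The count of 53 moved with single libraries: it was 19, 34 and 29 without vehicle libraries 1, 2 and 3. Without FGF19ΔKLB libraries 1, 2 and 3 it was 30, 37 and 31. Without FGF19WT libraries 1, 2 and 3 it was 76, 42 and 70. With library totals in place of TMM factors, or with limma on FPKM, it was 14. The share of all genes higher at this p was not taken in these fits. Whether the whole table moved alike therefore cannot be told from these counts. All 3 FGF19ΔKLB libraries were above all 3 vehicle libraries in 77 of 89 genes, where 12.4% of all genes were. The median log2 change was 0.67 against 0.0018 for all genes, 0.67 in the large and 0.65 in the small subunit, with 87 genes positive. DESeq2 called 9 higher of 88 (1.02% of all genes) and limma on FPKM 0.

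A fit over the 6 libraries of these groups leaves out the spread among the FGF19WT libraries. In it edgeR called 36 of 89 genes, all of them higher, where it called 0.894% of 17340 genes higher. With the 9 libraries less FGF19WT libraries 2 and 3 it called 37 of 91 higher (0.804% of all genes), and less FGF19WT library 1 it called 12 of 90 (0.478%). The fit over the 6 libraries of FGF19WT and vehicle called 0. With library totals in place of TMM factors the median for FGF19ΔKLB was 0.49 and that of all genes −0.17.

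**Figure D2:**
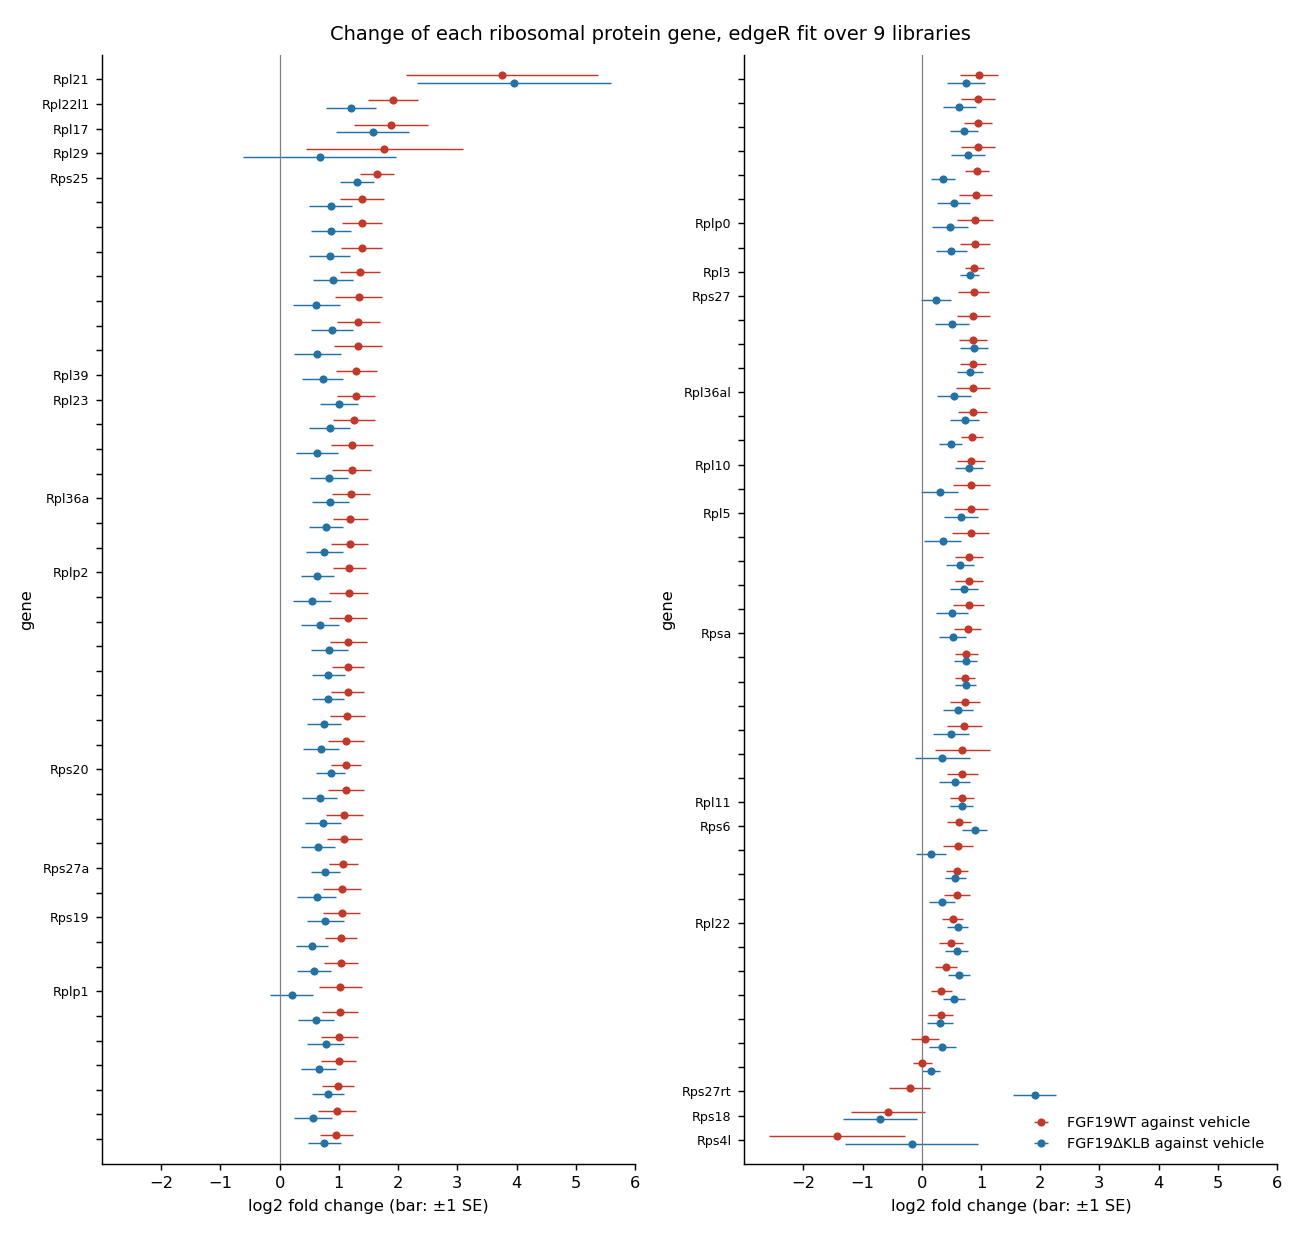
Log2 fold change of each of the 89 genes with ±1 SE, from the edgeR fit over 9 libraries, for FGF19WT (red) and FGF19ΔKLB (blue) against the shared vehicle libraries, sorted by the FGF19WT value and labelled for genes described in the text. The medians are 0.96 and 0.67, and Rps27rt, Rps18 and Rps4l are the 3 genes with a negative FGF19WT value.

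FGF19WT set against FGF19ΔKLB had a median log2 change of 0.32, with 77 of 89 genes positive. No gene was called over 9 libraries, where edgeR called 0.0% of all genes tested. At an unadjusted p under 0.05, Rpl34 and Rps27 were higher with FGF19WT, where 7.96% of all genes were, and Rps27rt was lower. Rpl34 was the only gene with all FGF19WT libraries above all FGF19ΔKLB libraries, where 6.39% of all genes were. Pseudogene rows held 49.9% of the Rpl34 family counts, and summed with them the groups overlapped. The sum stood at 94.1, 152.8 and 209.9 CPM with FGF19WT and at 107.3 to 119.6 CPM with FGF19ΔKLB (unadjusted p = 0.127 in edgeR). DESeq2 called 1 of 88, Rps27rt, lower with FGF19WT, where it called 4.65% of all genes in either direction. The direction depended on which FGF19WT libraries entered. Without library 1, edgeR called 37 of 90 genes higher with FGF19WT (9.3% of all genes). It called Rps27rt and Rps4l lower, where it called 2077 of all 19025 genes tested lower. Without library 3 the median was 0.0017, with 45 of 90 positive, and without libraries 2 and 3 it was −0.38, with 8 positive and 82 negative.

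Rps25, a small-subunit protein near the site where tRNA leaves, had the smallest p for FGF19ΔKLB over 6 libraries. It stood at 89.3, 81.5 and 92.4 CPM with vehicle, at 165.2, 255.7 and 401.9 CPM with FGF19WT, and at 215.4, 214.3 and 222.9 CPM with FGF19ΔKLB. Both treated groups were clear of vehicle, and the FGF19ΔKLB libraries nearly coincided. The gene (chromosome 9, 44407139 to 44410427) rose 2.48-fold with FGF19ΔKLB in the 6-library edgeR fit (log2 1.31, SE 0.106, adjusted p = 0.00606), while the 9-library fit gave an adjusted p of 0.251. For FGF19WT the log2 change was 1.64 (SE 0.293, adjusted p = 0.0924 in edgeR), 0.91 without libraries 2 and 3. Rps25 overlaps Trappc4 and Ccdc84 on the other strand, and whether the counting used the strand is not given in the sources used here, so their reads may be mixed in.

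Rpl3, a core large-subunit protein close to the peptidyl transferase center, had close levels in the 3 FGF19WT libraries when counted alone. It stood at 157.0, 152.2 and 165.3 CPM with vehicle, at 285.2, 294.7 and 296.3 CPM with FGF19WT, and at 303.1, 293.1 and 236.5 CPM with FGF19ΔKLB. None of the treated libraries overlapped vehicle. Rpl3 rose 1.75-fold with FGF19ΔKLB (log2 0.81, SE 0.131, adjusted p = 0.0345 in edgeR over 6 libraries, 0.204 over 9). For FGF19WT the log2 change was 0.88 with an adjusted p of 0.0924 in edgeR and 1.08e-08 in DESeq2, and 0.85 without libraries 2 and 3. Pseudogene rows held 48.1% of the Rpl3 family counts. Summed with them, Rpl3 stood at 314.3 to 357.0 CPM with vehicle and at 416.2, 536.4 and 586.3 CPM with FGF19WT. With FGF19ΔKLB the sum stood at 641.0, 578.4 and 452.5 CPM. Its log2 changes were 0.62 for FGF19WT and 0.74 for FGF19ΔKLB (adjusted p = 0.177 and 0.392 in edgeR over 9 libraries).

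Rps6 encodes the small-subunit protein that S6 kinase phosphorylates. It stood at 338.5, 377.8 and 366.5 CPM with vehicle, at 465.0, 508.1 and 696.3 CPM with FGF19WT, and at 724.6, 600.6 and 682.9 CPM with FGF19ΔKLB. The treated groups overlapped each other and not vehicle. Rps6 rose 1.85-fold with FGF19ΔKLB (log2 0.89, SE 0.127, adjusted p = 0.0256 in edgeR over 6 libraries, 0.270 over 9). Its log2 change for FGF19WT was 0.62 (adjusted p = 0.171 in edgeR), 0.37 without libraries 2 and 3.

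Among the stalk proteins Rplp0, Rplp1 and Rplp2, which recruit translation factors to the large subunit, the log2 change was larger for FGF19WT than for FGF19ΔKLB, which was not tested within this group of 3. Rplp0 stood at 279.6, 382.9 and 316.0 CPM with vehicle, at 350.0, 615.8 and 859.7 CPM with FGF19WT, and at 477.5, 423.5 and 457.4 CPM with FGF19ΔKLB. FGF19WT library 1 lay inside the vehicle range. Its log2 changes were 0.90 for FGF19WT and 0.47 for FGF19ΔKLB (adjusted p = 0.180 and 0.755 in edgeR). Rplp1 had log2 changes of 1.02 and 0.20 (adjusted p = 0.191 and 0.935), the smallest value for FGF19ΔKLB among these 3, with FGF19ΔKLB libraries at 253.9, 279.4 and 305.8 CPM inside or just above a vehicle range of 217.4 to 284.6. Rplp2 had log2 changes of 1.18 and 0.64 (adjusted p = 0.125 and 0.594). For Rplp0 and Rplp1 the FGF19WT value was 0.10 and 0.018 without libraries 2 and 3.

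Rpl5 and Rpl11 sit together with 5S rRNA in the large subunit and, when free, bind Mdm2 and stabilize p53. Rpl5 stood at 227.5 to 289.5 CPM with vehicle, at 296.0, 513.4 and 600.2 CPM with FGF19WT, and at 506.4, 383.1 and 366.0 CPM with FGF19ΔKLB. Rpl11 stood at 155.9 to 171.7 CPM with vehicle, at 202.9, 264.2 and 329.6 CPM with FGF19WT, and at 272.4, 251.5 and 267.4 CPM with FGF19ΔKLB. Both genes were above vehicle in all 6 treated libraries. Rpl11 rose 1.59-fold with FGF19ΔKLB (SE of log2 0.108, adjusted p = 0.0345 in edgeR over 6 libraries, 0.405 over 9), and Rpl5 did not pass there (1.58-fold, adjusted p = 0.105). Rps19, the gene most often mutated in Diamond-Blackfan anemia, stood at 89.9 to 111.0 CPM with vehicle, 113.2, 225.5 and 303.5 CPM with FGF19WT and 168.4 to 182.9 CPM with FGF19ΔKLB, and rose 1.70-fold with FGF19ΔKLB (adjusted p = 0.0345 over 6 libraries, 0.575 over 9). FGF19WT library 1 exceeded the highest vehicle library by little for Rpl5 and Rps19. Rps19bp1, which encodes the partner of Rps19, stood at 8.1 to 9.2 CPM with vehicle, 8.8, 14.6 and 16.2 CPM with FGF19WT and 8.0 to 12.4 CPM with FGF19ΔKLB.

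Other genes called for FGF19ΔKLB over 6 libraries came from both subunits. Rpl23, of the large subunit, stood at 119.0 to 121.4 CPM with vehicle and 227.4 to 250.9 CPM with FGF19ΔKLB. It rose 1.998-fold (adjusted p = 0.0111 in edgeR over 6 libraries). Rps20, of the head of the small subunit, went from 38.1 to 42.2 CPM with vehicle to 69.4 to 78.7 CPM (1.81-fold, adjusted p = 0.0187). Rpl36a went from 53.6 to 62.7 CPM with vehicle to 101.6 to 107.4 CPM (1.81-fold, adjusted p = 0.0187). Rps27a encodes a fusion of ubiquitin with a small-subunit protein. It went from 129.8 to 138.1 CPM with vehicle to 221.5 to 242.6 CPM with FGF19ΔKLB (1.71-fold, adjusted p = 0.0221). Rpl10, which completes the large subunit late in its assembly, rose 1.73-fold (adjusted p = 0.0303), and Rpl39, one of the smallest proteins of the ribosome, rose 1.65-fold (adjusted p = 0.0285). Rpl13a, Rpl14, Rpl32, Rpl35 and Rpl37a were among the 12 smallest p-values, with folds of 1.71 to 1.87 and adjusted p of 0.0204 to 0.0256. In the 9-library fit none of these 12 passed. With FGF19WT, Rpl23 stood at 152.9, 294.2 and 432.5 CPM, Rps20 at 55.0, 86.8 and 120.1 CPM and Rps27a at 189.4, 268.2 and 389.7 CPM, in each case above all vehicle libraries and lowest in library 1.

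**Figure D3:**
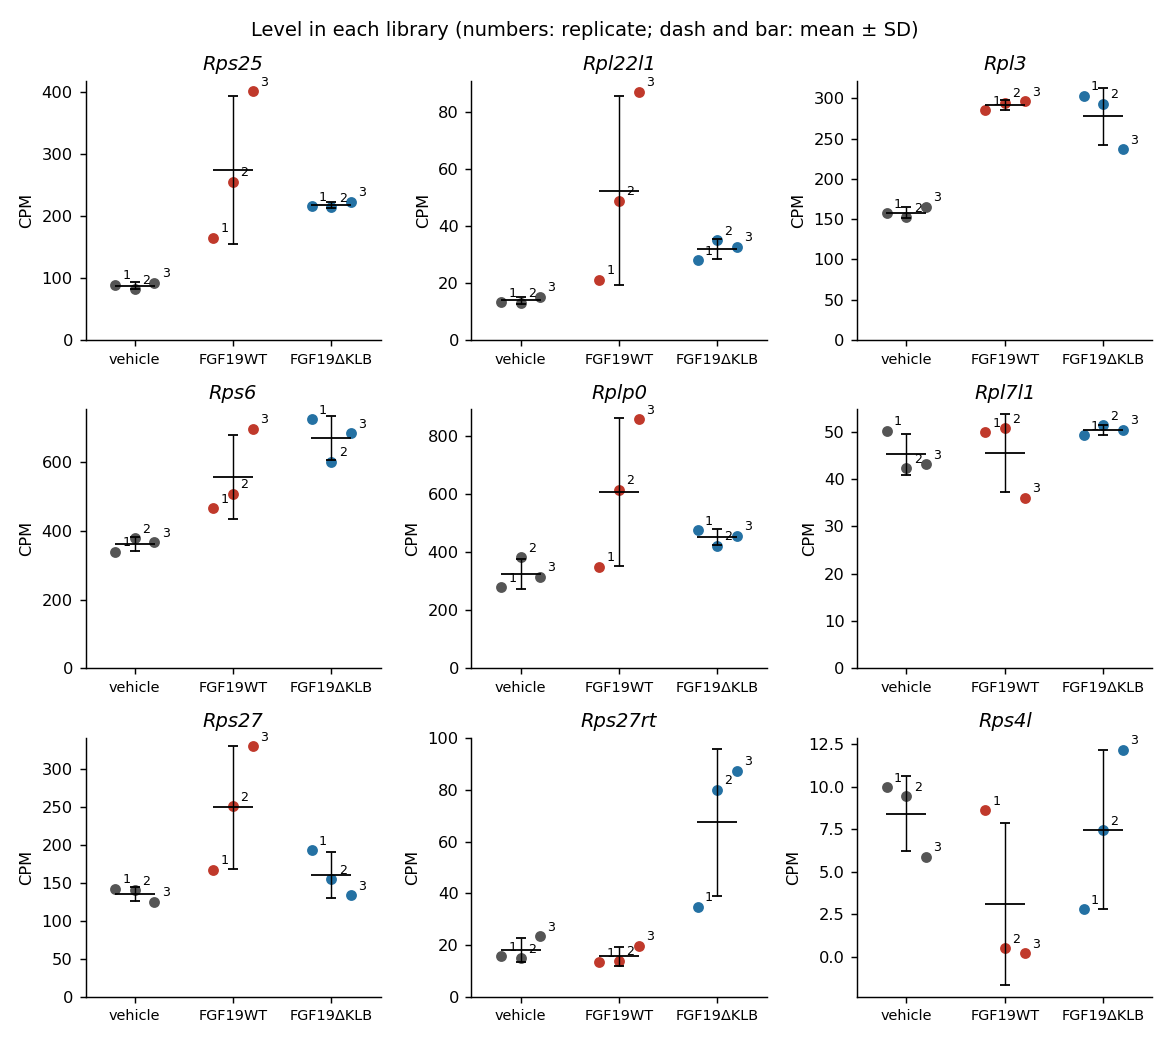
CPM of 9 genes in each library (points, numbered by replicate) with mean ± SD of 3 libraries. Rps25, Rpl3 and Rps6 are above vehicle in all 6 treated libraries, Rpl7l1 overlaps in all groups, Rps27rt is raised with FGF19ΔKLB, and Rps4l is near 0 in FGF19WT libraries 2 and 3.

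Some ribosomal proteins have a paralog, and the levels of both are given side by side. Rpl22l1 encodes a protein that can take the place of Rpl22. It stood at 13.3, 13.1 and 15.2 CPM with vehicle, at 21.2, 49.0 and 87.3 CPM with FGF19WT, and at 28.0, 35.1 and 32.8 CPM with FGF19ΔKLB. The treated libraries were all above vehicle. Rpl22l1 rose 2.30-fold with FGF19ΔKLB (log2 1.20, SE 0.131, adjusted p = 0.0124 in edgeR over 6 libraries, 0.484 over 9), and its log2 change for FGF19WT was 1.92 (SE 0.425, adjusted p = 0.125 in edgeR, 0.000967 in DESeq2), 0.61 without libraries 2 and 3. Rpl22 itself had log2 changes of 0.52 and 0.61 (adjusted p = 0.180 and 0.405 in edgeR). In FPKM, Rpl22l1 stood at 18.6% to 27.7% of Rpl22 with vehicle, at 26.7%, 61.6% and 81.8% with FGF19WT, and at 27.5% to 39.2% with FGF19ΔKLB. No 50-base window of the transcripts of either gene occurs in the other. With 3 libraries against 3, an exact test of a ratio could not go below a p of 0.1, so no test is given for these shares.

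Rps27l is a paralog of Rps27 and a p53 target. Rps27l stood at 84.7, 96.8 and 94.7 CPM with vehicle, 87.8, 120.2 and 136.8 CPM with FGF19WT, and 93.6, 107.5 and 140.6 CPM with FGF19ΔKLB, with overlap between the groups. Rps27 stood at 142.7, 140.4 and 125.6 CPM with vehicle, 167.6, 251.8 and 330.3 CPM with FGF19WT, and 193.2, 155.0 and 134.2 CPM with FGF19ΔKLB. In FPKM, Rps27l was 75.8% to 96.4% of Rps27 with vehicle, against 52.9% to 67.0% in the FGF19WT libraries and 61.9% to 134.0% in those of FGF19ΔKLB. Reads of Rps27 can also be assigned to its copy Rps27rt, described below, and these shares were not corrected for that. Rpl36al was 180.8% to 239.8% of Rpl36a in FPKM with vehicle, against 148.7% to 183.2% in the FGF19WT libraries and 149.2% to 176.2% in those of FGF19ΔKLB.

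Rps27rt, a retrotransposed copy of Rps27 within Osbpl10, had its highest levels with FGF19ΔKLB. It stood at 15.8, 15.0 and 23.3 CPM with vehicle, at 13.3, 13.9 and 19.7 CPM with FGF19WT, and at 34.9, 80.1 and 87.4 CPM with FGF19ΔKLB. All FGF19ΔKLB libraries were above the other 6, while FGF19WT overlapped vehicle. The log2 change for FGF19ΔKLB was 1.90 (SE 0.357), with an adjusted p of 0.185 in edgeR over 9 libraries, 0.0661 over 6 and 0.000232 in DESeq2. FGF19WT against FGF19ΔKLB gave −2.11 (SE 0.359, adjusted p = 0.237 in edgeR and 2.68e-05 in DESeq2). Of the 50-base windows of Rps27rt, 91.1% also occur in Rps27, so reads of the pair can be assigned to either. The sum of both genes was 158, 155 and 149 CPM with vehicle, 181, 266 and 350 CPM with FGF19WT, and 228, 235 and 222 CPM with FGF19ΔKLB. Within FGF19ΔKLB the highest library of the sum was 1.06 times the lowest, and Rps27 was lowest where Rps27rt was highest.

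A few genes had groups that overlapped or values against the shift. Rpl7l1, a relative of Rpl7 that acts in the nucleolus, stood at 50.2, 42.3 and 43.1 CPM with vehicle, 49.9, 50.8 and 36.0 CPM with FGF19WT, and 49.3, 51.4 and 50.4 CPM with FGF19ΔKLB. Rps10 stood at 90.2 to 105.3 CPM with vehicle, 121.6, 78.4 and 101.1 CPM with FGF19WT, and 89.0, 135.7 and 144.2 CPM with FGF19ΔKLB. The groups overlapped for both genes alone. Pseudogene rows held 41.2% of the Rps10 family counts. Summed with them, Rps10 stood at 140.7 to 168.2 CPM with vehicle and at 188.6, 156.6 and 206.5 CPM with FGF19WT. With FGF19ΔKLB the sum stood at 169.0, 214.4 and 237.1 CPM, above all vehicle libraries. The log2 changes of the sum were 0.28 for FGF19WT and 0.45 for FGF19ΔKLB (adjusted p = 0.437 and 0.593 in edgeR). The transcribed pseudogene Rps4l stood at 9.99, 9.44 and 5.89 CPM with vehicle, at 8.64, 0.518 and 0.218 CPM with FGF19WT, and at 2.82, 7.46 and 12.2 CPM with FGF19ΔKLB. It was low in FGF19WT libraries 2 and 3, where Rps4x, its protein-coding relative, stood at 587.3 and 634.3 CPM against 271.9 to 315.2 CPM with vehicle. The log2 change for FGF19WT was −1.43 (SE 1.15, adjusted p = 0.512 in edgeR), and 0.036 without libraries 2 and 3.

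Ribosomal protein genes have many processed pseudogenes, and reads that fit a gene and its copies can be counted for either. The table lists 206 hyphenated pseudogene rows, which name 57 of the 92 genes as parent, and 130 of the rows passed the filter. Their median log2 changes were 0.89 for FGF19WT and 0.69 for FGF19ΔKLB, close to those of the genes. The pseudogene rows held over 50% of the counts of the family for 6 genes: Rpl21 (93.4%), Rpl17 (73.4%), Rpsa (67.0%), Rps18 (52.96%), Rpl7a and Rps12 (52.2% each). Rpsa, the laminin-binding protein of the small subunit, stood at 133.4 to 174.7 CPM with vehicle, 192.2 to 320.9 CPM with FGF19WT and 189.9 to 250.1 CPM with FGF19ΔKLB, while its copy Rpsa-ps10 stood at 199.3 to 233.4, 271.0 to 902.9 and 403.3 to 478.5 CPM. In all, 89 of the 92 genes share at least 1 window of 50 bases with another gene, at a median of 21.6% of their windows, and 11 share over 50% of theirs.

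Rpl21 had the largest fitted log2 changes, 3.76 for FGF19WT and 3.96 for FGF19ΔKLB (adjusted p = 0.259 and 0.580 in edgeR), and each came from 1 library. It stood at 0.761, 0.820 and 0.563 CPM with vehicle, at 26.1, 1.43 and 1.57 CPM with FGF19WT, and at 1.09, 31.2 and 1.11 CPM with FGF19ΔKLB. Only FGF19WT library 1 and FGF19ΔKLB library 2 were high. Its copy Rpl21-ps15 stood at 57.7 to 71.2 CPM with vehicle, 83.1 to 134.6 CPM with FGF19WT and 78.0 to 108.9 CPM with FGF19ΔKLB, and summed with 13 pseudogene rows the family gave log2 changes of 0.94 and 0.83 with an SE of 0.232 and 0.231. Rpl17 went from log2 changes of 1.88 and 1.57 alone to 1.27 and 0.82 as a family. The upper quartile of the 89 genes alone was 1.16 for FGF19WT, below the Rpl17 family.

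Rps18 and Rpl29 were uneven within groups too, and their sums with the hyphenated pseudogene rows stayed uneven. Rps18 stood at 140.1 CPM in vehicle library 2 and at 24.0 and 25.9 CPM in the other vehicle libraries, at 31.1 to 53.9 CPM with FGF19WT and 36.7 to 41.5 CPM with FGF19ΔKLB. Its negative log2 changes, −0.57 and −0.71, came from vehicle library 2 and turned to 0.77 and 0.64 without it. Rpl29 stood at 2.62 CPM in vehicle library 1 and 2.29 CPM in FGF19ΔKLB library 2, and at 68.1 to 241.2 CPM in the other 7. With the pseudogene rows added, Rps18 still stood at 160.1 CPM in vehicle library 2 against 51.2 and 60.5, and Rpl29 at 3.38 CPM in both low libraries. Only hyphenated rows were added, while Rps18 shares 50-base windows with 148 other genes and Rpl29 with 82. Whether reads of the 2 genes were counted for copies under other names was not tested. For these 2 genes the log2 changes describe single libraries.

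**Figure D4:**
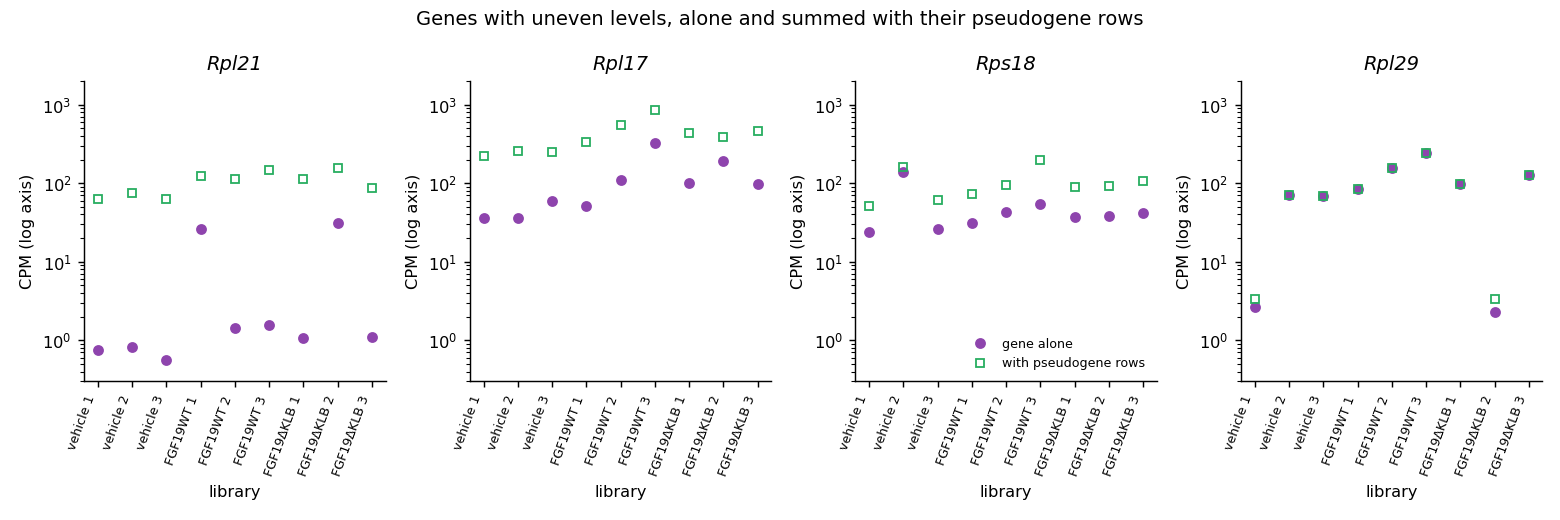
CPM on a log axis in each library for Rpl21, Rpl17, Rps18 and Rpl29, alone (filled circles) and summed with their hyphenated pseudogene rows only (open squares). The spikes of Rpl21 in FGF19WT library 1 and FGF19ΔKLB library 2 shrink in the sum, while the high Rps18 value of vehicle library 2 and the low Rpl29 values remain.

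Rack1 and Fau are among the ribosomal protein genes outside the naming rule. Rack1, a scaffold on the small subunit, stood at 220 to 224 CPM with vehicle, 316, 525 and 574 CPM with FGF19WT and 350 to 377 CPM with FGF19ΔKLB. It rose with FGF19ΔKLB (log2 0.72, adjusted p = 0.0275 in edgeR over 6 libraries, 0.455 over 9), and its log2 change for FGF19WT was 1.09 (adjusted p = 0.125). Fau stood at 120 to 124 CPM with vehicle, 169 to 261 CPM with FGF19WT and 164 to 174 CPM with FGF19ΔKLB. Its log2 changes were 0.75 for FGF19WT and 0.46 for FGF19ΔKLB (adjusted p = 0.127 and 0.555 in edgeR over 9 libraries).

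Other mRNAs that are known for a TOP start include those of elongation factors and snoRNA hosts. Of 27, 11 were higher at an unadjusted p under 0.05 for FGF19WT and 15 for FGF19ΔKLB, with medians of 0.39 and 0.48, and 0 were lower. At this p, which is used for the other lists too, 11.7% of all genes tested were higher for FGF19WT and 4.64% for FGF19ΔKLB. Eef1b2, a subunit of the elongation factor 1 complex, stood at 109 to 115 CPM with vehicle, 135, 207 and 223 CPM with FGF19WT and 165 to 185 CPM with FGF19ΔKLB, and rose with FGF19ΔKLB (log2 0.66, adjusted p = 0.0345 in edgeR over 6 libraries, 0.416 over 9). Btf3, a subunit of the nascent chain complex, stood at 88.2 to 97.5, 106 to 119 and 128 to 137 CPM. Among 54 initiation factors 11 and 4 were higher, against the same 11.7% and 4.64% of all genes, with medians of 0.16 and 0.14. Eif3f, also on the TOP list, stood at 77.3 to 88.1 CPM with vehicle and 99.8, 130 and 169 CPM with FGF19WT.

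Mitochondrial ribosomal proteins and the proteasome, a large complex of other function, had medians near those of all genes. The 78 mitochondrial ribosomal protein genes had medians of 0.030 and 0.062, with 9 higher and 2 lower at an unadjusted p under 0.05 for FGF19WT and 4 higher and 0 lower for FGF19ΔKLB. The 39 proteasome genes had medians of −0.037 and −0.014. Of 28 genes of mTORC1, Myc and RNA polymerase I control, 5 were higher and 2 lower for FGF19WT and 1 and 1 for FGF19ΔKLB. Among them Mycn, a Myc family factor, reached 7.71 and 6.17 CPM in libraries 2 and 3 of FGF19WT and stood at 0.384 to 2.08 CPM in the other 7. Mtor, the kinase itself, stood at 49.2, 76.5 and 56.7 CPM with vehicle, 41.9, 36.1 and 27.4 CPM with FGF19WT and 42.4 to 48.8 CPM with FGF19ΔKLB. None of these genes was called by edgeR over 9 libraries.

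Of 12 p53 targets 4 were higher at an unadjusted p under 0.05 for FGF19WT and 1 for FGF19ΔKLB, where 11.7% and 4.64% of all genes tested were, with medians of 0.53 and 0.48. Bax, which promotes apoptosis, reached 36.1 and 35.3 CPM in libraries 2 and 3 of FGF19WT and stood at 10.9 to 23.8 CPM in the other 7. All 12 proliferation genes were higher at that p for FGF19WT and 2 for FGF19ΔKLB, with medians of 4.33 and 1.88. Mki67, a marker of dividing cells, stood at 0.704 to 1.48 CPM with vehicle, 2.92, 27.2 and 37.1 CPM with FGF19WT and 5.87 to 6.13 CPM with FGF19ΔKLB, and rose with FGF19ΔKLB (log2 2.55, adjusted p = 0.0180 in edgeR over 6 libraries, 0.410 over 9). FGF19WT libraries 3 and 2, with the highest ribosomal protein shares, also had the most Mki67, and the part of dividing cells in the ribosomal protein levels was not tested.

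**Figure D5:**
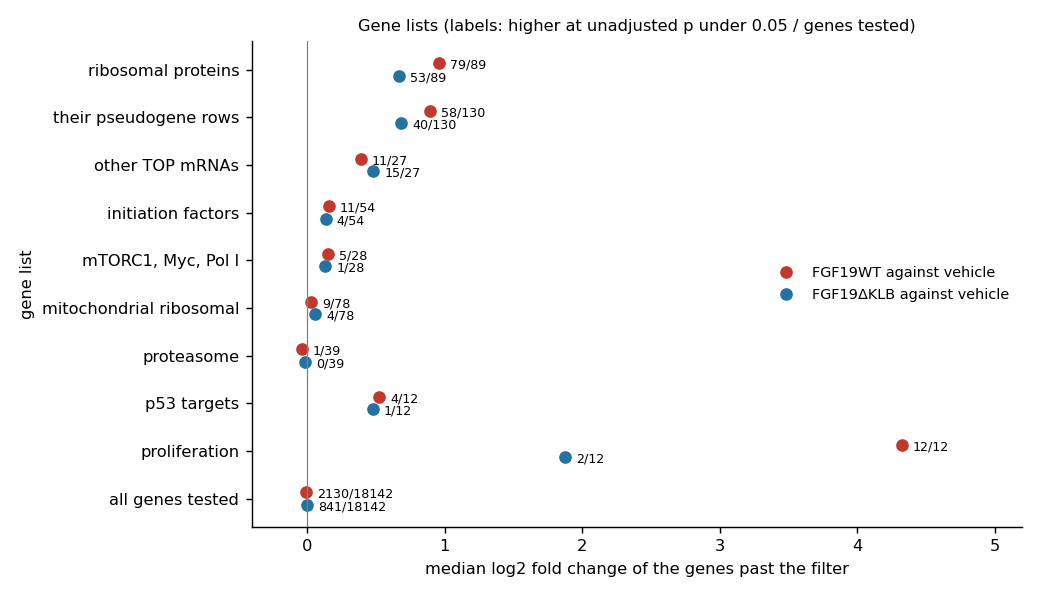
Median log2 fold change of each gene list for FGF19WT (red) and FGF19ΔKLB (blue) against the shared vehicle libraries, with the number of genes higher at an unadjusted p under 0.05 of those tested. The ribosomal proteins lie near 0.96 and 0.67, mitochondrial ribosomal proteins and proteasome genes near 0, and the proliferation genes furthest right.

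The 92 genes lie on 19 chromosomes, with 15 on chromosome 7, and 16 of them carry 28 snoRNA genes in their introns, which guide the modification of ribosomal RNA. In 14 genes the span overlaps another gene with at least 1 CPM, among them Rpl5, Rpl15, Rpl28, Rpl31, Rpl35 and Rps14 beside Rps25, so part of their counts may belong to that neighbour.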

How the data were processed

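Liver RNA was sequenced in 9 libraries. The authors deposited a table of genes that holds, for each library, expected counts and FPKM values. Per the submitters' processing notes, the tools included Bowtie 0.12.2, HISAT2 2.0 and StringTie 1.3.0, with no roles stated. The notes name the build mm8, while the start of all 92 genes matches GENCODE M21 on GRCm38, whose positions are used here. The expected counts deposited by the authors were rounded to whole numbers, filtered with filterByExpr and scaled by TMM. All 18142 genes left were tested with edgeR 4.0.16 (quasi-likelihood, robust, Benjamini-Hochberg, threshold 0.05) over 9 libraries, with DESeq2 1.42.0 and limma 3.58.1 on log2(FPKM + 1) as alternatives, in R 4.3.3. The scripts were tested on simulated data. FPKM as deposited served to compare genes with each other. Labels give each library's group. They do not say whether replicate numbers pair libraries, and the main fit used no pairing. Deviations from group means correlated at −0.048 to 0.147 between same-numbered libraries and at −0.178 to 0.138 between others. With 3 libraries a group, these values cannot exclude pairing.

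The genes and lists were chosen with earlier results of these data known. Genes named are a list of subunits and paralogs, the 3 highest and 3 lowest changes per comparison, up to 12 called genes by p, the 5 highest and 5 lowest mean FPKM, and up to 4 genes by p per other list. Rpl34, Rpl17, Rps4x, Rpl7a, Rps12, Rps10 and the overlapping genes were named after their values were seen. Protein sequences were not used here, and the values of some genes are not reported here.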

Additional observations from a re-analysis of the deposited data

How the results depend on the processing

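The median log2 change of the ribosomal protein genes stayed positive against vehicle under every alternative run. It was 0.49 for FGF19ΔKLB with library totals in place of TMM (all genes −0.17) and 0.49 with limma on FPKM (all genes −0.10). DESeq2 called 62 genes for FGF19WT, 9 for FGF19ΔKLB and 1 between them, and a fit over the 6 libraries of FGF19ΔKLB and vehicle called 36. Leaving out 1 library at a time, calls ran from 0 to 79, 0 to 12 and 0 to 39 for FGF19WT, FGF19ΔKLB and their comparison, above 0 without FGF19WT library 1 alone. The medians ran from 0.67 to 1.17, 0.61 to 0.72 and 0.0017 to 0.59. Without FGF19WT libraries 2 and 3 together, the FGF19WT median was 0.30, FGF19ΔKLB had 37 calls, and FGF19WT against FGF19ΔKLB reversed to −0.38. With a replicate block the medians were 0.91, 0.69 and 0.27. The block gave 0 calls among these genes, as did the main fit, so this count cannot show an effect of pairing. Over all genes tested, calls for FGF19WT against vehicle went from 5 higher and 15 lower to 1 and 0. For FGF19ΔKLB against vehicle they went from 0 and 2 to 0 and 0. Rps18 ran from −0.96 to 0.77 for FGF19WT and from −1.10 to 0.64 for FGF19ΔKLB with 1 library left out, positive without vehicle library 2, and Rps4l for FGF19WT without libraries 2 and 3 (0.036). The cause was not tested. Of the alternatives for single genes, 619 kept direction and side of the threshold, 41 passed it newly and 3 reversed. Sums with pseudogene rows were chosen after seeing the data and gave medians of 0.96, 0.69 and 0.33. With 3 libraries a group and a wide FGF19WT spread, small changes were not detectable.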
